A study of Mus musculus with 4 samples.

Results

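Ly6C-high MHC II-low monocytes of the mouse colon were the cells described here. A cell was a member when its UMIs of Ly6c2, Plac8 and Chil3 summed to at least 50 per 10000 UMIs, those of the MHC class II genes H2-Aa, H2-Ab1, H2-Eb1 and Cd74 to under 200, and those of the complement genes C1qa, C1qb and C1qc to under 120. A UMI is a molecular identifier that marks 1 captured RNA molecule. By this rule 883 of the 5420 cells were members. The cells came from male C57/Bl6N mice that were 6 to 7 weeks old at the start and received chow or a coconut-based high-fat diet (HFD) for 1 week. Both groups held 2 mice, named chow 9, chow 11, HFD 1 and HFD 3 by the numbers in the labels, and were kept under specific pathogen-free conditions. Live CD45+ Lin- CD11b+ CD24- cells that were Ly6C+ or CD64+ were sorted from the colon, and each mouse filled 1 droplet well. Mouse and library are therefore the same unit, and a difference between mice and a difference between wells cannot be told apart.

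Ly6C-high monocytes leave the blood through the chemokine receptor CCR2 and enter the colonic mucosa throughout life. There they switch on MHC class II, lose Ly6C and become macrophages that are marked by complement C1q, the fractalkine receptor CX3CR1 and high CD64. The cells described here stand near the start of this maturation, with MHC class II still low. Monocytes respond to interferons through interferon regulatory factors (IRFs) and other transcription factors, which switch on guanylate-binding proteins, chemokines of the CXCL9 type and the machinery that loads peptides on MHC class I.

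The whole matrix held 904 to 2002 cells per mouse. The member cells summed to 229568 UMIs in chow 9, 281560 in chow 11, 1178409 in HFD 1 and 1080906 in HFD 3, with a median of 2576, 2874, 3814 and 2782 UMIs per member cell. The chow sums were thus the shallower ones, and the low genes were less precise in them. In all, 23 cell barcodes occurred in 2 libraries, 8 member cells carried such a barcode, and 0 barcodes were shared between members of different mice. Scrublet, which scores doublets within each mouse, marked 2 members among 38 cells in all. The median mitochondrial share of a member was between 0.744% and 0.93% of its UMIs in the 4 mice.

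The genes that define blood monocytes went with the label. These levels are plain CPM (counts per 1000000 UMIs) of the summed cells and are not tested, since the rule chose the cells by genes that move with them. Vcan, a matrix proteoglycan of young monocytes, stood at 135, 99.4, 99.3 and 71.2 CPM in the members of chow 9, chow 11, HFD 1 and HFD 3, against 0 to 2.89 CPM in the C1q-high macrophages (C1q score of at least 120) of the same mice. Ccr2, the receptor that lets monocytes leave the bone marrow, was at 592, 906, 1146 and 940 CPM against 186 to 403 CPM. In the MHC II-high cells with a low Ly6C score it was at 688, 660, 479 and 498 CPM, above the members in chow 9. Of 25 blood monocyte genes outside the rule, 20 were higher in the members than in the C1q-high macrophages of the same mouse in each of the 4 mice, and 1, the growth factor receptor gene Csf1r, was lower in each. Of 18 genes of resident macrophages outside the rule, 17 were lower in each mouse, and Lyve1 and Timd4 had no UMI in a member. Vcan had a UMI in 16.3% of the members and Itgam, which encodes the sort marker CD11b, in 0.68%, so neither marks single cells at this depth.

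Markers of T and NK cells and of epithelium were near 0. The sum of 13 measured T and NK cell genes was 4.36 to 50 CPM, with none in 5% of the members and Cd3e, Ncr1 and Ifng at 0. That of 13 epithelial genes was 4.36 to 25.9 CPM, with Epcam and Cdh1 at 0. Of 12 neutrophil genes 4 were measured, with a sum of 144 to 271 CPM led by Il1r2 and Csf3r. The 9 genes of patrolling monocytes, the Ly6C-low monocytes of the blood, summed to 1729, 1392, 1039.5 and 1001 CPM in the members of chow 9, chow 11, HFD 1 and HFD 3, against 348 to 800 CPM in the C1q-high macrophages. They were led by Nr4a1, also an immediate-early gene, at 735 to 1194 CPM, and Nr4a1, Spn, Treml4 and Ace were higher in the members of each mouse. The sum of 6 B and plasma cell genes was 332 to 536 CPM in 3 mice and 27916 CPM in chow 11. That value came mostly from 1 cell of 14299 UMIs, which held 4742 UMIs of Igha and 2924 of Jchain and had an MHC class II score of 120. The next highest member held 3 UMIs of Igha. The cell was not marked as a doublet.

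The members differed among themselves in the scores that chose them, which is a description. The median Ly6C score was 132 and 155 per 10000 UMIs in the chow mice and 236 and 237 in the HFD mice. This score sums Ly6c2, Plac8 and Chil3. Ly6c2 itself was at 1228, 1801, 1513 and 2017 plain CPM in chow 9, chow 11, HFD 1 and HFD 3, and the diets overlapped in it. Plac8 was at 7122, 8101, 13548 and 12348 CPM and Chil3 at 7741, 9202, 10313 and 10554 CPM. The median MHC class II score was 26.7, 57.7, 33.2 and 48 in chow 9, chow 11, HFD 1 and HFD 3. Within 20% of the Ly6C limit lay 15 cells inside and 22 outside, and of the MHC class II limit 52 inside and 54 outside. No cell that met the other limits lay within 20% of the C1q limit. Of the 52 cells just inside the MHC class II limit, 14 came from HFD 1 and 34 from HFD 3.

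The share of these monocytes among the sorted cells was compared between diets to ask whether 1 week of HFD changed their abundance. They were 86 of 904 cells in chow 9 (9.51%, Wilson 95% interval 7.77% to 11.6%) and 95 of 2002 in chow 11 (4.75%, 3.9% to 5.77%). On HFD they were 315 of 966 cells in HFD 1 (32.6%, 29.7% to 35.6%) and 387 of 1548 in HFD 3 (25.0%, 22.9% to 27.2%). The intervals cover counting error only. The diets did not overlap, and the mean was 28.8% ± 5.38 (SD, n = 2) on HFD against 7.13% ± 3.37 (SD, n = 2) on chow, a difference of 21.7 percentage points or 4.04-fold. The fold was 6.07 without chow 9 and 3.03 without chow 11. The exact two-sided permutation test gave p = 0.3333, the smallest that 2 against 2 mice allow, so no exact test here can pass 0.05. Shares of one whole move together, and C1q-high macrophages were 72.6% and 82.6% of the cells on chow and 25.8% and 20.3% on HFD. Cells that passed the same Ly6C limit, with MHC class II at or above its limit, were 6 and 28 cells (0.664% and 1.4%) on chow and 141 and 453 cells (14.6% and 29.3%) on HFD. For each monocyte there were thus 0.0698 and 0.295 such cells on chow and 0.448 and 1.17 on HFD. With no limit on MHC class II the difference between diets was 42.6 percentage points.

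**Figure D1:**
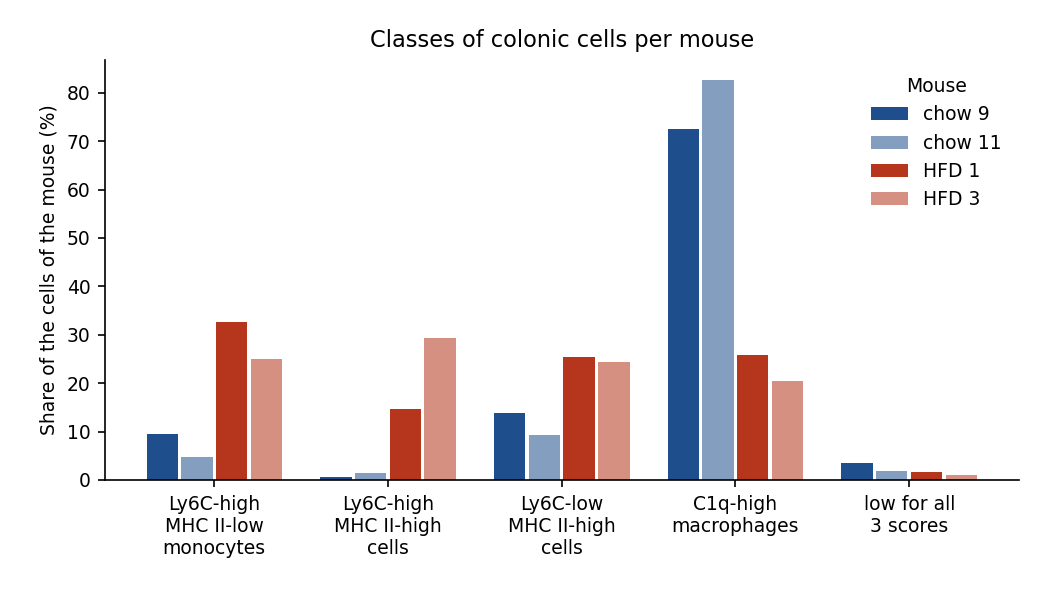
Share of the cells of each mouse (vertical axis, %) in 5 classes set by the 3 scores (horizontal axis), 1 bar per mouse, blue for chow and red for HFD. The monocytes made up 9.51% and 4.75% of the cells on chow and 32.6% and 25.0% on HFD.

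To ask what HFD changed within the monocytes, UMIs were summed over the members of each mouse and the quasi-likelihood test of edgeR was run on 4388 genes, with a gene called at an adjusted p (Benjamini-Hochberg) under 1%. HFD changed 44 genes (1.0% of those tested), of which 33 rose (0.752%) and 11 fell (0.251%), and 610 genes had an unadjusted p under 0.05. A tested gene needed a UMI in 5% of the members, and 702 of the 883 members came from HFD mice. Low genes seen on HFD alone thus entered more easily than those seen on chow alone, which favours rises in these counts. The median log2 fold change over all tested genes was -0.03. The diets did not overlap in any of the 44, but the same held for 43.5% of all tested genes, so separation alone says little here. The genes that rose included interferon-inducible GTPases, Cxcl9 and 3 genes of the MHC class I pathway, and those that fell included genes of resident macrophages and 2 chemokines. The count depended on single mice. It was 107 without chow 9, 137 without chow 11, 19 without HFD 1 and 7 without HFD 3. The 7 genes called in each of the 18 alternatives were Calhm6, Cxcl9, Gbp2, Gbp3, Gbp5, Ifitm1 and Irf1, and each of the 44 kept its direction wherever an alternative gave it an adjusted p, which the DESeq2 Wald test did not for AA467197, Upp1 and Iigp1. The sums of the chow mice came from fewer cells, and with every sum thinned to the smallest one 31 genes were called, each among the 44. Values below are TMM-normalised CPM of the sums unless another scale is named.

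Interferon-inducible GTPases attack membranes around bacteria and parasites inside the cell. Of 19 listed, 8 were tested, 6 rose, 0 fell, and all 8 had a positive log2 fold change with a median of 2.90. The filter on low values favours rises in this list, since genes with few UMIs on chow, such as Gbp5 and Iigp1, entered through the HFD members. Gbp2 (chr3:142620602-142638008, GRCm38) was at 73.3 and 126 CPM in chow 9 and chow 11 and at 1559 and 2386 CPM in HFD 1 and HFD 3. The HFD mice thus lay far above both chow mice. The fold change was 4.29 ± 0.30 (log2, SE) with an adjusted p of 3.63e-07. Gbp3 was at 73.3 and 86.3 CPM in the chow mice against 434 and 533 CPM in the HFD mice, a log2 fold change of 2.59 ± 0.25 (adjusted p = 2.41e-05). Gbp5 had 1 UMI in each chow mouse against 142 and 182 UMIs on HFD, a ratio of 36.6 per UMI sequenced with a counting interval of 10.1 to 304. Gbp7 (log2 fold change 2.82 ± 0.41) and the immunity-related GTPases Irgm1 (2.80 ± 0.47) and Iigp1 rose as well. Gbp7 kept its call in 14 of 18 alternatives, with 4.49 without chow 11 and 2.14 without chow 9, Irgm1 in 13 of 18 and Iigp1 in 8 of 17. Iigp1 also had 1 UMI in each chow mouse, and its ratio was 16.3 with an interval of 4.43 to 136. Gbp8 (2.97 ± 0.82, adjusted p = 0.0894) and Gbp9 (1.14 ± 0.82, adjusted p = 0.605) did not pass the test. Gm12250, the symbol of the immunity-related GTPase Irgb10, was not on the list and rose from 4.58 and 15.7 CPM to 145 and 203 CPM (4.02 ± 0.48, adjusted p = 0.000153). It had 1 and 4 UMIs in the chow mice, and its log2 fold change ranged from 3.45 to 5.61 in the alternatives. Gbp2, Gbp3, Gbp5 and Gbp7 are related neighbours on chromosome 3, and how reads that fit several of them were divided is not given in the sources used here.

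**Figure D2:**
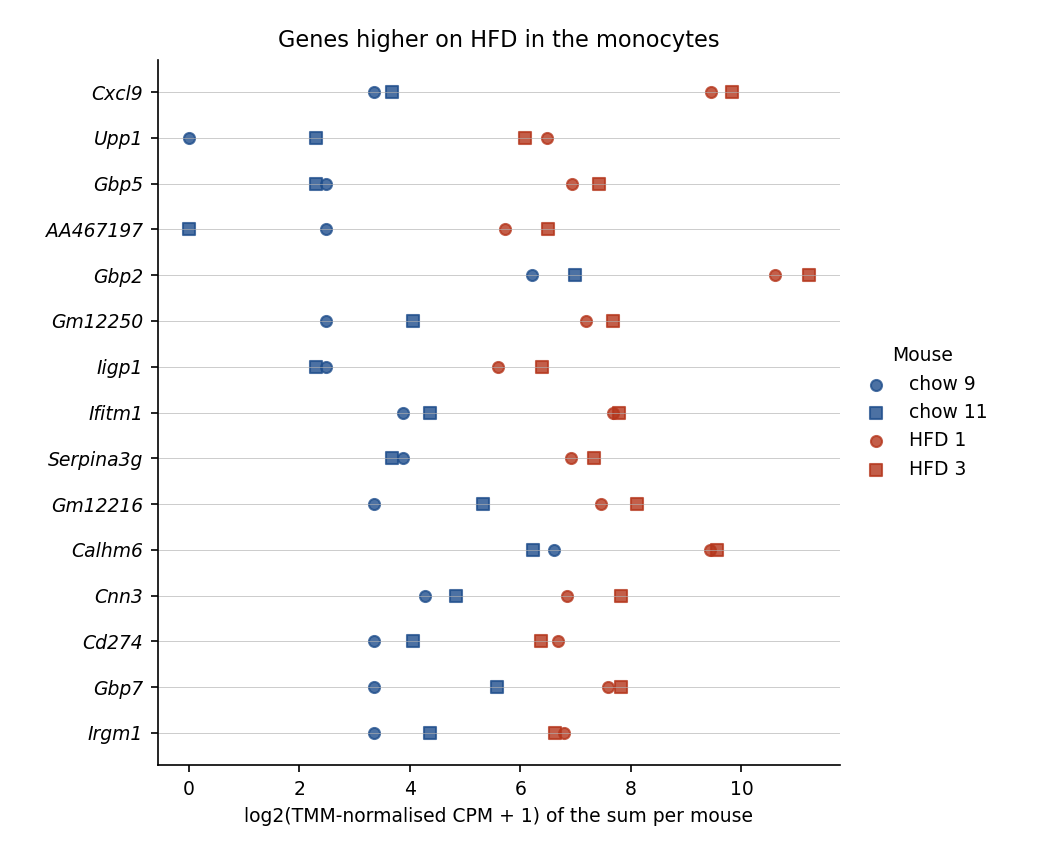
Level of the 15 called genes with the largest rises in the monocytes, as log2(TMM-normalised CPM + 1) of the sum of each mouse (horizontal axis), 1 row per gene, circles and squares for the 2 mice of each diet. Every red HFD point lies to the right of both blue chow points of its gene, from Cxcl9 at the top to Irgm1 with 110 and 98 CPM on HFD against 9.16 and 19.6 CPM on chow.

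The regulators of the interferon response were fewer among the calls. Of 15 tested of 21 listed, 1 rose and 10 had a positive fold change (median 0.29). This was Irf1, an interferon regulatory factor that is itself induced by interferon-gamma, at 96.2 and 145 CPM in the chow mice against 526 and 577 CPM in the HFD mice. Its log2 fold change was 2.18 ± 0.24 (adjusted p = 7.36e-05), and in the alternatives it ranged from 1.75 to 2.82. Ifngr1, a chain of the interferon-gamma receptor, was at 990 and 1028 CPM in the chow mice against 769 and 652 CPM in the HFD mice (-0.51 ± 0.19, adjusted p = 0.23). Ifng, the gene of interferon-gamma, had no UMI in a member.

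Effectors that type I interferon typically induces moved less. Of 48 tested of 58 listed, 2 rose, 0 fell and 34 had a positive fold change, with a median of 0.23. Ifitm1, an interferon-induced membrane protein, was at 13.7 and 19.6 CPM in the chow mice against 203 and 219 CPM in the HFD mice (3.63 ± 0.37, adjusted p = 4.33e-05). Zbp1, a sensor of nucleic acids, was at 252 and 165 CPM against 552 and 676 CPM (1.57 ± 0.23, adjusted p = 0.00108). Isg15, a ubiquitin-like modifier, was at 124 and 176 CPM against 259 and 375 CPM and did not pass the test (1.06 ± 0.26, adjusted p = 0.051). The median of this list was thus far below that of the GTPases, although both exceeded the median of all tested genes. No test was made between the lists, and the filter favours rises among the low genes of both.

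MHC class I presentation rose in part. Of 19 tested of 23 listed, 3 rose, 0 fell and 17 had a positive fold change, with a median of 0.59. Tap1, a chain of the transporter that brings peptides into the endoplasmic reticulum, was at 96.2 and 86.3 CPM in the chow mice against 355 and 492 CPM in the HFD mice (2.22 ± 0.26, adjusted p = 0.000138). Psmb9, a subunit of the immunoproteasome, was at 165 and 227 CPM against 470 and 525 CPM (1.33 ± 0.22, adjusted p = 0.00286), and Psme2, a proteasome activator, at 399 and 357 CPM against 734 and 912 CPM (1.12 ± 0.21, adjusted p = 0.00632). Psme2 lost its call with the MHC class II score kept under 100 (0.85, adjusted p = 0.012) or under 50 (0.60, adjusted p = 0.24), and Psmb9 with it under 50 (1.12, adjusted p = 0.02). Of 8 tested genes of MHC class II loading and costimulation outside the rule, 2 rose. These were Cd40, the receptor by which T cells activate myeloid cells, at 18.3 and 58.8 CPM against 161 and 217 CPM, and Cd274, which encodes the T cell inhibitor PD-L1, at 9.16 and 15.7 CPM against 101 and 82 CPM. Their log2 fold changes were 2.24 ± 0.38 (adjusted p = 0.00404) and 2.84 ± 0.50 (adjusted p = 0.00465), and that of Cd40 was 3.36 without chow 11.

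The chemokine genes split in direction. Of 12 tested of 21 listed, 1 rose and 3 fell. Cxcl9 (chr5:92321347-92328079), which draws T cells that carry CXCR3, had 2 and 3 UMIs in the chow mice and 821 and 970 UMIs in the HFD mice, or 9.16 and 11.8 CPM against 699 and 914 CPM. Its log2 fold change of 6.23 ± 0.36 (adjusted p = 4.21e-08) was the largest rise among the called genes and ranged from 4.83 to 6.78 in the alternatives. Cxcl1, which draws neutrophils, fell from 188 and 161 CPM to 32.4 and 13.2 CPM (-2.91 ± 0.39, adjusted p = 0.000515). Ccl3, a chemokine of the CC family, fell from 1993 and 1843 CPM to 746 and 876 CPM (-1.24 ± 0.20, adjusted p = 0.00204). The platelet factor gene Pf4 fell too and is given with the genes of resident macrophages. Ccl5, which also draws T cells, was at 0 and 8 CPM in the chow mice against 33 and 210 CPM in the HFD mice, a wide spread within HFD, and did not pass (4.78 ± 1.17, adjusted p = 0.051).

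Further genes that rose span several functions. Calhm6, of the calcium homeostasis modulator family, was at 96.2 and 74.5 CPM in the chow mice against 690 and 751 CPM in the HFD mice (3.08 ± 0.24, adjusted p = 1.18e-06). Upp1, the uridine phosphorylase gene, had 0 and 1 UMI on chow and 104 and 71 UMIs on HFD, a ratio of 39.6 with a counting interval of 7.01 to 1573. Acod1, whose enzyme makes itaconate, was at 4.58 and 51 CPM against 155 and 202 CPM (2.59 ± 0.47, adjusted p = 0.00554). The 2 chow mice differed widely in Acod1, whose log2 fold change was 5.24 without chow 11 and 1.80 without chow 9, and the call held in 10 of 18 alternatives. These were the 2 of 11 tested immunometabolic enzymes that rose. Fcgr4, an activating receptor for IgG, was at 32.1 and 90.2 CPM against 221 and 276 CPM (1.98 ± 0.34, adjusted p = 0.00381), the single call among 5 tested Fc receptors. Its log2 fold change ranged from 1.46 to 3.38 in the alternatives, and its call held in 13 of 18. Ly6i, of the Ly6 family, was at 64.1 and 78.4 CPM against 244 and 330 CPM (2.00 ± 0.28, adjusted p = 0.00088). Among blood monocyte genes outside the rule, 1 of 23 tested rose. It was Samhd1, which breaks down deoxynucleotides and restricts retroviruses, at 962 and 847 CPM against 1942 and 2406 CPM (1.27 ± 0.20, adjusted p = 0.00242). The serpin gene Serpina3g (3.45 ± 0.46), the actin-binding calponin gene Cnn3 (2.86 ± 0.47), AA467197 and Gm12216 (3.14 ± 0.44) complete the 15 largest rises among the called genes. Gm12216 had 2 and 10 UMIs in the chow mice, and its log2 fold change ranged from 2.51 to 4.97 in the alternatives. AA467197 had 1 and 0 UMIs on chow, and its ratio was 35.3 with an interval of 6.24 to 1403. Such rises were not confined to the monocytes. In MHC II-high cells with a low Ly6C score and in C1q-high macrophages, the log2 fold change was 6.39 and 4.81 for Cxcl9 and 3.41 and 3.72 for Gbp2. AA467197 was at 998 and 702 plain CPM on HFD in those MHC II-high cells, against 51.8 and 87.9 in the monocytes. Genes whose diet effect differed between classes are given below.

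Because many of the genes that rose are known for control by interferon, their promoters were scanned for both classical interferon motifs, which were chosen with these results known. The windows are those of RefSeq (GRCm38.p6), 300 bases each, from 250 bases before to 50 bases after an annotated start site. The gamma-activated site was searched as TTCNNNGAA and the IRF motif as GAAA, any 2 bases and GAAA, on both strands and with overlaps between the motifs allowed. Of the 33 genes that rose, 27 matched a window by symbol. The gamma-activated site stood in 8 of their 32 windows (25.0%) against 8.30% of all 32851 windows scanned and 6.85% of those of the tested genes. The IRF motif stood in 10 of the 32 (31.2%) against 3.44% and 4.18%. Of the 11 genes that fell, 10 matched, and 0 of their 13 windows held either motif. The windows of 5 genes described above are printed 5′ to 3′ on the strand of the gene, with the motif letters in capitals, to show where the matches lie. Gbp5 (chr3:142496684-142496983, plus strand) held gamma-activated sites 245 and 52 bases before the start and an IRF motif 165 bases before it. Gbp2 (chr3:142620413-142620712, plus strand) and Calhm6 (chr10:34127923-34128222, minus strand) held an IRF motif 59 and 64 bases before the start. Irf1 has 2 windows. The printed one (chr11:53769764-53770063, plus strand) held a gamma-activated site 90 bases before the start, and the other (chr11:53770223-53770522) held neither motif. Cxcl9 (chr5:92328030-92328329, minus strand) held neither in this window.
Gbp5: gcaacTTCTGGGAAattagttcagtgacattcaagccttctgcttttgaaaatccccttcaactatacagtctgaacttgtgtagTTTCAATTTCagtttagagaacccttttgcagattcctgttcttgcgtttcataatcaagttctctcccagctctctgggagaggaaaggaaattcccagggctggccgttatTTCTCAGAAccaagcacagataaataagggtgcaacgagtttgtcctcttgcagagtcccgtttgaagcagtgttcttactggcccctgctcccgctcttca
Gbp2: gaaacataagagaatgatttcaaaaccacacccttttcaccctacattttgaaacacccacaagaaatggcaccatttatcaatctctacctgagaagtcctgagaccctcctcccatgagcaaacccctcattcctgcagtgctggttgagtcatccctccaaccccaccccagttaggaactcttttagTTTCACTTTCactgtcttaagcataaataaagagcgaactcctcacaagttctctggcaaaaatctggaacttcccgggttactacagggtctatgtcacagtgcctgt
Calhm6: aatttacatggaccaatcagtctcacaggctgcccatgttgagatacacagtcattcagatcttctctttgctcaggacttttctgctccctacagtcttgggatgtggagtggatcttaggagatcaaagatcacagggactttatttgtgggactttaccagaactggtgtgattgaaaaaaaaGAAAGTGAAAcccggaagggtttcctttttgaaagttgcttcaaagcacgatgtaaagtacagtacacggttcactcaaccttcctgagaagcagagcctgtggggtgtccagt
Irf1: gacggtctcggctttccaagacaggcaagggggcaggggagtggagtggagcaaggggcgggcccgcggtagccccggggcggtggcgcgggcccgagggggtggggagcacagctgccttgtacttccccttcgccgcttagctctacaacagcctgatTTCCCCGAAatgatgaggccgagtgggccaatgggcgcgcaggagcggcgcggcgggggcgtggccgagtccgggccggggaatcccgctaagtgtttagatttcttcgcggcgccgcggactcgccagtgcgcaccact
Cxcl9: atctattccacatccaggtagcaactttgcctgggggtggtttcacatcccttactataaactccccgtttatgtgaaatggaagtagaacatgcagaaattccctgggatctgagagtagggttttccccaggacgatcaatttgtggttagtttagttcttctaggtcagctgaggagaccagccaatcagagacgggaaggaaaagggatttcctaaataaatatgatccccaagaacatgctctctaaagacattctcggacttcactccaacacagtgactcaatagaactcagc
A match describes letters and does not show binding, and the absence of a match in Cxcl9 says only that these letters are not in this window.

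To see whether few or many monocytes carried the response, each cell with at least 1500 UMIs was thinned to 1500 UMIs, which left out 12, 9, 36 and 51 members of chow 9, chow 11, HFD 1 and HFD 3. At least 3 of the 15 called genes with the largest rises had a UMI in 0 of 74 cells of chow 9, which allows a share of up to 4.05% (3 counts of 74), in 2.33% of the cells of chow 11, in 54.5% of HFD 1 and in 64.0% of HFD 3. At least 1 had a UMI in 33.8% and 20.9% of the cells on chow and in 89.2% and 94.6% on HFD. Most HFD monocytes thus held UMIs of several of these genes, although the 15 were chosen on the sums of the same cells. Without thinning, 4.76% and 3.36% of the HFD monocytes had no UMI of any of the 15. Cxcl9 had a UMI in 0% and 1.16% of the thinned cells on chow and in 30.1% and 37.2% on HFD. Gbp2 had one in 10.8% and 8.14% on chow and in 58.1% and 71.4% on HFD. Free RNA in the droplets can add UMIs to cells that do not make a gene, and no cell type known to lack these genes was among the cells analysed here, so that background was not measured. In C1q-high macrophages, at least 3 of the 15 genes were seen in 0.631% and 0.971% of the thinned cells on chow and in 20.2% and 26.3% on HFD.

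**Figure D3:**
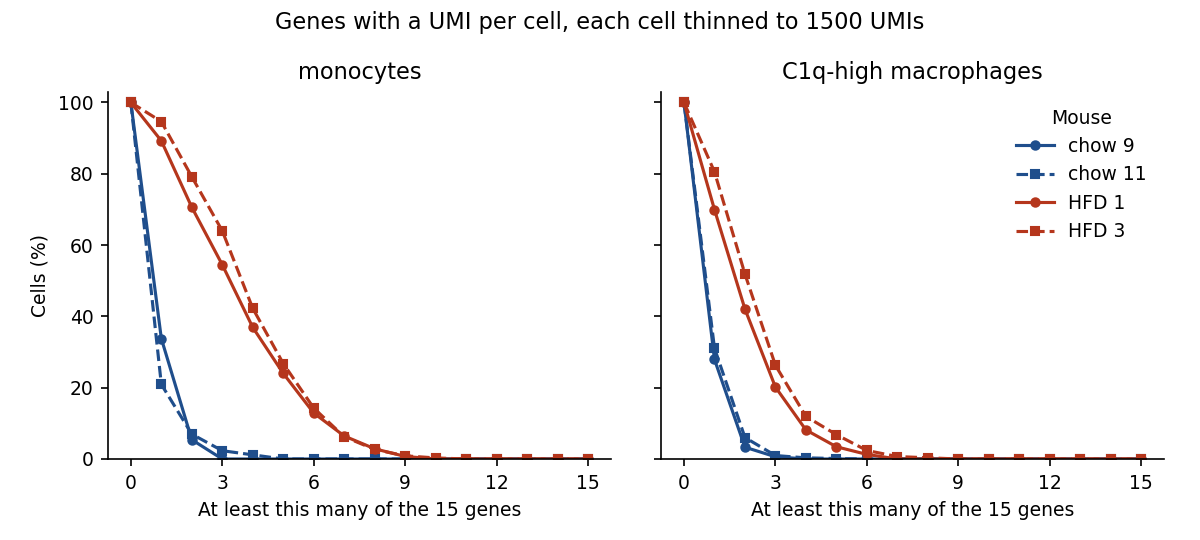
Percentage of cells (vertical axis) with a UMI of at least the given number (horizontal axis) of the 15 called genes with the largest rises, after thinning each cell to 1500 UMIs, 1 line per mouse, for the monocytes and the C1q-high macrophages. In the monocytes the HFD lines stand at 54.5% and 64.0% for 3 genes, and the chow lines at 0% and 2.33%.

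Among the 11 genes that fell, 5 belonged to the 11 tested genes of resident macrophages outside the rule, whose median log2 fold change was -1.14, with 1 of the 11 positive. Cd81, a tetraspanin, was at 174 and 349 CPM in the chow mice against 41.7 and 36.7 CPM in the HFD mice (-2.74 ± 0.32, adjusted p = 0.000135). Pf4 was at 77.9 and 149 CPM against 17.9 and 11.3 CPM (-2.95 ± 0.43, adjusted p = 0.00108). Cx3cr1, the fractalkine receptor gene, was at 202 and 235 CPM against 60.5 and 68.8 CPM (-1.76 ± 0.26, adjusted p = 0.00108). Apoe, the lipid carrier gene, was at 6346 and 11719 CPM against 3262 and 3784 CPM (-1.36 ± 0.25, adjusted p = 0.00713), and Hpgd, which inactivates prostaglandins, at 197 and 137 CPM against 32.4 and 60.3 CPM (-1.85 ± 0.35, adjusted p = 0.00835). Apoe kept its call in 11 of 18 alternatives and Hpgd in 10 of 18, with adjusted p up to 0.167 and 0.214, and the log2 fold change of Apoe was -0.84 without chow 11. Ms4a7, a membrane protein of macrophages outside this list, fell as well (-1.80 ± 0.27, adjusted p = 0.00108). The transcription factor gene Id3 fell from 499 and 490 CPM to 255 and 205 CPM (-1.10 ± 0.20, adjusted p = 0.00599), the single call among 21 tested monocyte and macrophage factors, of which 3 had a positive fold change (median -0.34). Id3 kept its call in 12 of 18 alternatives.

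Several of these genes were far higher in the C1q-high macrophages, which made up most cells on chow. In the members, Pf4 stood at 3.17%, 6.21%, 2.23% and 2.53% of the CPM of the C1q-high macrophages of chow 9, chow 11, HFD 1 and HFD 3, Cd81 at 2.39% to 8.42% and Ms4a7 at 3.45% to 6.41%. C1qa, which the rule keeps low, stood at 2.2%, 6.76%, 1.74% and 2.24%. Apoe stood at 9.37% to 17.6%, Cx3cr1 at 19.6% to 40.1% and Cxcl1 at 2.3% to 10.5%. Hpgd and Ccl3 were nearer to the level of the C1q-high macrophages, at 38.9% to 120% and 36.4% to 72.8% of their CPM, and Id3 was higher in the members than in the C1q-high macrophages of each mouse, at 139% to 235% of their CPM. The part of RNA from C1q-high macrophages in these falls was not tested. A C1q score under 10 left 73 of 86 members in chow 9, 40 of 95 in chow 11, 294 of 315 in HFD 1 and 329 of 387 in HFD 3. The sum of chow 11 went from 281560 to 110776 UMIs, and calls lost through this depth cannot be told apart from others. With only these members, Cd81 remained called (-2.41, adjusted p = 0.0041), and the other genes that fell kept their sign without passing 1%. The log2 fold change was -2.93 for Pf4 (adjusted p = 0.013), -2.85 for Cxcl1 (0.011), -1.71 for Ms4a7 (0.032), -1.71 for Hpgd (0.085), -1.33 for Apoe (0.013), -1.30 for Cx3cr1 (0.091), -0.96 for Ccl3 (0.084) and -0.84 for Id3 (0.21), and 18 genes were called.

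**Figure D4:**
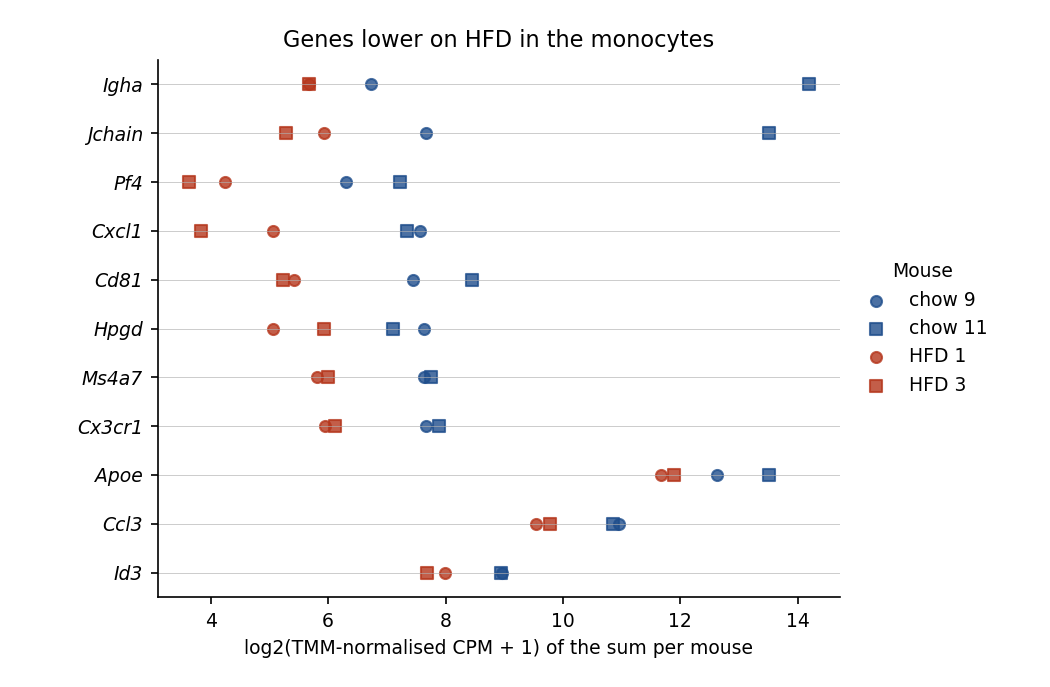
Level of the 11 genes that fell in the monocytes, as log2(TMM-normalised CPM + 1) of the sum of each mouse (horizontal axis), 1 row per gene, circles and squares for the 2 mice of each diet. The chow 11 points of Igha and Jchain, at 18712 and 11629 CPM, come mostly from 1 cell and lie far from those of chow 9 at 105 and 202 CPM.

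The immunoglobulin genes Igha and Jchain also passed the test, at 105 and 18712 CPM and 202 and 11629 CPM on chow against 50.3 and 49.9 CPM and 59.6 and 37.7 CPM on HFD. Of the Igha UMIs of the chow 11 members, 99.4% were in the cell named above. Without it Igha no longer passed (-1.15, adjusted p = 0.1), Jchain did (-1.90, adjusted p = 0.0033), and 46 genes were called. Without all of chow 11, Igha did not pass either (-1.06, adjusted p = 0.12).

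Genes that mark fresh blood monocytes showed no common shift. Of 23 tested, 11 had a positive fold change, and the median was -0.04. Thbs1, which encodes thrombospondin, was at 1370 and 1075 CPM in the chow mice against 705 and 611 CPM in the HFD mice without passing 1% (-0.89 ± 0.20, adjusted p = 0.03), and Ifitm6 at 1714 and 1130 CPM against 805 and 867 CPM (-0.76 ± 0.22, adjusted p = 0.1). Among 19 tested cytokine and receptor genes 0 were called by edgeR or by DESeq2, and 8 had an unadjusted p under 0.05 in edgeR. Those with the smallest adjusted p, named after their values were seen, were Il27, which encodes a subunit of interleukin 27 and had 5 and 0 CPM against 40 and 68 CPM (4.55 ± 0.91, adjusted p = 0.012), Il1rn, the interleukin 1 antagonist, at 82 and 122 CPM against 220 and 285 CPM (1.29 ± 0.27, adjusted p = 0.018), and Il18bp, which neutralises interleukin 18 (3.13 ± 0.66, adjusted p = 0.018). These 3 were past 5%. Of 10 tested heat-shock genes and 17 tested immediate-early genes, which tissue digestion can induce, 0 were called by edgeR or DESeq2, 0 and 5 had an unadjusted p under 0.05 in edgeR, and 0 and 3 were positive, with medians of -0.29 and -0.28. Their summed level in the members was 4234 and 4781 CPM in the chow mice against 3326 and 4293 CPM in the HFD mice for the former, and 20783 and 18337 CPM against 16884 and 18098 CPM for the latter.

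Whether HFD acted on the monocytes as on the macrophages at the far end of this maturation was asked with the interaction of diet and class in edgeR, with a term for each mouse, over the sums of members and C1q-high macrophages. The diet effect differed in 28 of 5425 genes (0.516%). In the monocytes 6 of these (0.111%) changed more positively and 22 (0.406%) more negatively. The 22 hold 3 genes of the rule and 8 genes that passed the filter on low values through the monocytes alone, namely F10, Hp, Mcemp1, Ifitm6, Tarm1, Trem3, Ifi205 and Adora2b, which leaves 11 tested in both classes. Levels here are plain CPM. Gbp3 differed by 2.15 ± 0.27 on the log2 scale (adjusted p = 0.000496). In the C1q-high macrophages it was at 142 and 192 CPM in the chow mice against 245 and 275 CPM in the HFD mice (log2 fold change 0.55, adjusted p = 0.0753), so those cells started higher and the monocytes ended higher. Irf1 started at a like level in both, at 91.5 and 131 CPM in the monocytes of the chow mice and 83.5 and 133 CPM in their C1q-high macrophages. On HFD it stood at 524 and 566 CPM and at 178 and 164 CPM, a difference of 1.73 ± 0.26 (adjusted p = 0.00278). Fcgr4 did not pass in the C1q-high macrophages, at 306 and 418 CPM against 298 and 389 CPM, and differed by 2.28 ± 0.31 (adjusted p = 0.000775). Socs3 (1.28 ± 0.22), Gadd45g (1.58 ± 0.28) and Ecm1 (2.18 ± 0.38) fell in the C1q-high macrophages and had higher values on HFD in the monocytes, where none of the 3 passed.

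Among the 11 genes in the other direction that were tested in both classes were Ly6i, Sirpb1c and Irf7. Irf7, another interferon regulatory factor gene, differed by -2.34 ± 0.31 (adjusted p = 0.000727). In the C1q-high macrophages it was at 25.5 and 28.6 CPM in the chow mice against 156 and 193 CPM in the HFD mice. In the monocytes of chow 9, chow 11, HFD 1 and HFD 3 it was at 754, 341, 490 and 709 CPM. Ly6i was at 0.982 and 3.3 CPM in the chow mice against 222 and 295 CPM in the HFD mice in the C1q-high macrophages, a difference of -4.56 ± 0.44 (adjusted p = 4.47e-05). Sirpb1c, of the signal-regulatory protein family, was at 27.5 and 18.7 CPM against 110 and 120 CPM in those cells and at 549, 320, 500 and 462 CPM in the monocytes, a difference of -2.04 ± 0.24 (adjusted p = 0.000297). The 8 genes that passed through the monocytes alone have no test of their own in the C1q-high macrophages, so the levels of F10, Hp, Mcemp1 and Ifitm6 are given as a description. In the C1q-high macrophages F10, the coagulation factor X gene, was at 1.31 and 2.01 CPM in the chow mice against 78.9 and 44.2 CPM in the HFD mice, beside 152, 153, 251 and 129 CPM in the monocytes. Hp, the haptoglobin gene, was at 2.95 and 4.02 CPM against 56.8 and 50.2 CPM, Mcemp1 at 5.56 and 8.75 CPM against 40.4 and 62.1 CPM and Ifitm6 at 9.82 and 8.75 CPM against 29.8 and 37.6 CPM. Chil3 and Plac8, genes of the rule that are abundant in the monocytes, were also higher in the C1q-high macrophages on HFD, at 219 and 312 CPM and 771 and 898 CPM against 15.1 and 52.7 CPM and 40.6 and 75.8 CPM on chow. Monocytes were 9.51% and 4.75% of the cells on chow and 32.6% and 25.0% on HFD, and the part of their RNA in these values was not tested. The count was 16 without chow 9, 21 without chow 11 and 28 without HFD 3. It was 0 without HFD 1, where edgeR gave 413 genes an unadjusted p under 0.05.

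The cells on the other side of the MHC class II limit with a high Ly6C score were too few on chow for sums. The monocytes were therefore set against the C1q-low cells with high MHC class II and a Ly6C score under 50, a comparison chosen after the data were seen. These were 13.8% and 9.29% of the cells on chow and 25.4% and 24.3% on HFD. The diet effect differed in 62 of 5062 genes (1.22%), with 39 (0.77%) more positive and 23 (0.454%) more negative in the monocytes. Without the 3 genes of the rule among the latter, and without Hbegf and Ccl24, which passed the filter through the MHC II-high cells alone, these were 38 and 19. Ccl4, another CC chemokine gene, fell in the MHC II-high cells from 5786 and 3579 CPM to 692 and 765 CPM (-2.82, adjusted p = 2.7e-05). In the monocytes it was at 1363, 838, 1106 and 1582 CPM in chow 9, chow 11, HFD 1 and HFD 3, and the diets overlapped, a difference of 3.01 ± 0.22 (adjusted p = 6.35e-11). Ccl3 fell in both, by 1.24 on the log2 scale in the monocytes and by 3.37 in the MHC II-high cells, a difference of 2.11 ± 0.22 (adjusted p = 4.56e-07). The immediate-early factor genes Atf3 (2.06 ± 0.22), Jun (1.83 ± 0.24) and Klf6 (1.52 ± 0.22) and the lipid receptor gene Trem2 (2.47 ± 0.34) likewise fell in the MHC II-high cells and did not pass in the monocytes. The 17 listed immediate-early genes, which digestion can induce, summed in the MHC II-high cells to 24581 and 23829 CPM on chow against 11678 and 11722 CPM on HFD. In the monocytes they summed to 20783 and 18337 CPM against 16884 and 18098 CPM. The part of tissue handling in these differences was not tested.

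More negative in the monocytes were Hp (-3.92 ± 0.44), F10 (-4.06 ± 0.47), the cystine transporter gene Slc7a11 (-2.14 ± 0.26), the mycobacterial lipid receptor gene Clec4e (-1.58 ± 0.24) and Ly6i (-3.01 ± 0.46). In the MHC II-high cells Hp went from 4.92 and 5.61 CPM on chow to 175 and 86 CPM on HFD. F10 went from 7.37 and 11.2 CPM to 212 and 188 CPM. Plac8, a gene of the rule, went there from 206 and 355 CPM to 1567 and 1620 CPM. Chil3, also of the rule, went from 93.4 and 63.6 CPM to 236 and 248 CPM. The part of monocyte RNA in these values was not tested. Slc7a11 rose in the MHC II-high cells from 211 and 181 CPM to 814 and 630 CPM, against 301, 270, 273 and 188 CPM in the monocytes. The chemokine gene Ccl24 was in the MHC II-high cells at 51.6, 13.1, 210 and 521 CPM in chow 9, chow 11, HFD 1 and HFD 3, and has no test of its own in the monocytes, where it was at 4.36, 95.9, 22.9 and 25.0 CPM. The count was 67 without chow 9, 101 without chow 11, 32 without HFD 1 and 44 without HFD 3. Both comparisons share the sums of the monocytes, so a gene found in both is not found independently.

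**Figure D5:**
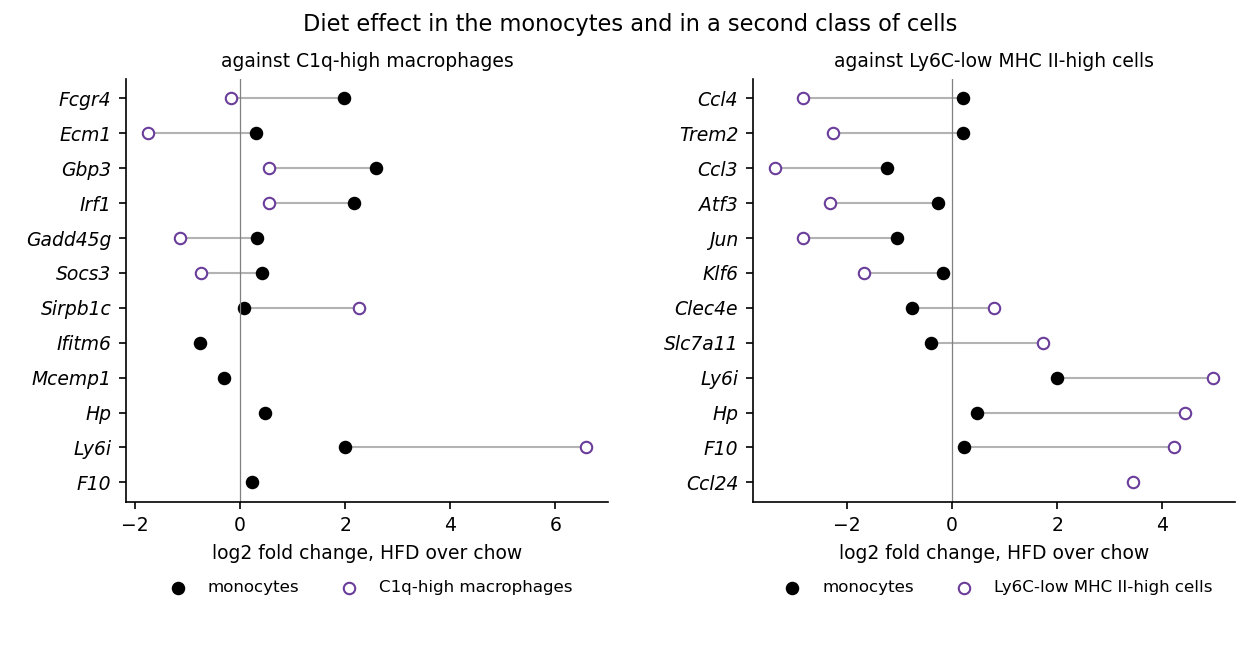
Log2 fold change of HFD over chow (horizontal axis) in the monocytes (black) and in the second class (open), for up to 6 genes in each direction with the smallest p in the comparison with C1q-high macrophages (left) and with Ly6C-low MHC II-high cells (right). A missing point is a gene that was not tested in that class alone. Gbp3 stands at 2.59 in the monocytes and 0.55 in the C1q-high macrophages, and Ccl4 at 0.21 and -2.82 on the right.

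How the genes varied with MHC class II among cells with a Ly6C score of at least 50 was described in the HFD mice. There, every step of the MHC class II score held at least 46 cells. The steps were under 50, 50 to 100 and 100 to 200, which are members, and 200 to 400 and above 400, which are not. Fn1, a blood monocyte gene of fibronectin, stood at 494, 436, 171, 134 and 68.3 CPM over these steps in HFD 1 and at 492, 246, 132, 66.1 and 38.2 CPM in HFD 3. Irf1 went from 579 to 228 CPM in HFD 1 and from 673 to 173 CPM in HFD 3 between the first and the last step. Its level was thus highest in the monocytes with the least MHC class II. AW112010, an interferon-induced transcript, went the other way, from 423 to 1955 CPM and from 344 to 1829.5 CPM. The gene of the peptide loader H2-DMb1 likewise went from 171 to 1562 CPM and from 174 to 1671 CPM. Cxcl9 had no single direction, with 565, 753, 1325, 526 and 1295 CPM in HFD 1 and 746, 688, 1413, 977 and 992 CPM in HFD 3. Gbp2 was highest at 50 to 100, with 2517 CPM in HFD 1 and 3251 CPM in HFD 3. These values are a description over cells of 2 libraries and carry no test.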

How the data were processed

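Sorted colonic cells of 2 chow and 2 HFD mice were measured by droplet single-cell RNA-seq. The authors deposited 1 table of raw UMI counts for 11820 genes and 5420 cells, for which the submitters' processing notes name mm10, bustools 0.39.2 and kallisto 0.46.0. Per their methods, low-quality cells and other cell types had been removed. Symbols of 11819 genes came from GENCODE M21 (GRCm38).

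Counts were summed per mouse over the members. Genes above 1 CPM in 2 or more sums that had a UMI in 5% or more of the members entered the quasi-likelihood test of edgeR (version 4.0.16) with TMM normalization and Benjamini-Hochberg adjustment over all genes tested. Named are up to 15 rises and 15 falls by size past 1% with separated diets and a mean of at least 20 CPM, up to 6 genes per direction in each interaction, and leading list members; others were chosen after their values were seen. DESeq2 (version 1.42.0), other gates and scalings, and each mouse left out were alternatives. Scrublet ran in scanpy (version 1.11.5), and doublets were kept. The tests across genes were also run on simulated counts with known changes. The diet test recovered 10.6% of log2 changes of 1 and 81.5% of log2 changes of 2. The comparison with C1q-high macrophages recovered 0.8% and 57.3%. A gene or list without a call is therefore not shown to be unchanged. The members and gene lists were chosen with earlier results of these data known. P-values measure the spread between these mice, which edgeR draws toward a spread shared across genes. With so few mice the shared part weighed most in the diet test of the monocytes (prior degrees of freedom 13.8). A few items are not reported here.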

Additional observations from a re-analysis of the deposited data

Results flagged for a closer look

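Results stand here because a diet effect differed between the monocytes and a second class of cells of the same mice, by the interaction in edgeR. Against the C1q-high macrophages 28 genes differed, and against the Ly6C-low MHC II-high cells 62. Both counts include 3 genes of the rule that chose the monocytes. They also include 8 and 2 genes that passed the filter on low values through 1 of the 2 classes alone, which leaves 17 and 57 genes. Among the genes that HFD changed in the monocytes, the difference from the C1q-high macrophages was 2.15 for Gbp3 (log2, monocytes minus macrophages), 1.73 for Irf1, 2.28 for Fcgr4 and -4.56 for Ly6i. All 4 lost the call without HFD 1, with an adjusted p of 0.071 for Gbp3, 0.11 for Irf1, 0.11 for Fcgr4 and 0.016 for Ly6i, and kept their sign. Gbp3 also lost it without chow 11 (adjusted p = 0.016), Fcgr4 without chow 9 (0.014) and Irf1 without either chow mouse (0.022 and 0.046). Against the Ly6C-low MHC II-high cells the difference was 2.11 for Ccl3 and -3.01 for Ly6i, and both were called in each alternative run. Other genes that HFD changed in the monocytes also differed from the Ly6C-low MHC II-high cells. These were Irf1 (2.09), Gbp3 (2.01), Fcgr4 (1.95), Apoe (1.24) and Psme2 (-1.10). With 2 mice per diet no sample could be tested as an outlier within its group.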

How the results depend on the processing

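The 44 genes called between diets became 123 with no filter on low counts (median log2 fold change 0.17 in place of -0.03), 86 with the likelihood-ratio test, 67 with an MHC class II score under 100, 18 with a C1q score under 10 and 73 at 5%. Leaving out 1 mouse gave 7 to 137. The other alternatives gave 31 to 48, among them 33 with DESeq2's size factors and 36 with the DESeq2 Wald test. The difference in share became 28.2 points with MHC class II under 400, 42.6 with no such limit and 12.3 under 50, and without 1 mouse 17.9 to 25.5. The comparison with C1q-high macrophages gave 77 genes with no filter and 0 to 28 without 1 mouse, that with MHC II-high cells 32 to 101. The cause was not tested. Without 1 mouse Hspa1a ranged from -0.97 to 0.010 and Hsp90ab1 from -0.86 to 0.18, the upper values without chow 9 and without chow 11, and neither was called. Limits under 50 and 10, the comparison with MHC II-high cells and the omitted immunoglobulin-rich cell were chosen after the data were seen. The comparison with Ly6C-high MHC II-high cells was not run, because chow 9 held 6 of them. Where a diet kept 1 mouse, that mouse was assumed to vary like the others. In the diet test without chow 9 or without chow 11, the prior degrees of freedom were infinite. Single genes then had no spread of their own, so those counts do not reflect the omitted mouse alone. No paired analysis was possible because the diets share no replicate number. The shallow chow sums limit the low genes.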

Other observations

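In the lists of energy metabolism and protein turnover below, no gene was called. The diet test recovered 10.6% of simulated log2 changes of 1, so smaller changes in these lists would mostly be missed. Of 73 tested nuclear genes for the respiratory complexes and the ATP synthase, 0 were called by edgeR or DESeq2, 24 had an unadjusted p under 0.05 in edgeR, 62 had a positive fold change and the median was 0.34, against 47.9% positive and a median of -0.03 over all tested genes. Over all 4388 tested genes, 610 had an unadjusted edgeR p under 0.05. The diets did not overlap in 50 of the 73, against 43.5% of all tested genes. Named after their values were seen, Ndufc1, a subunit of complex I, was at 96 and 98 CPM in the chow mice against 204 and 197 CPM in the HFD mice (1.04 ± 0.26, adjusted p = 0.051), and Ndufs4, another one, at 197 and 200 CPM against 293 and 375 CPM (0.75 ± 0.22, adjusted p = 0.12). The 9 tested genes of the mitochondrial genome had 2 positive fold changes and a median of -0.13, and mt-Nd1 was at 3001 and 2585 CPM against 2311 and 1980 CPM (-0.38 ± 0.20, adjusted p = 0.43). Of 59 mitochondrial ribosomal proteins 46 were positive (median 0.31), of 34 constitutive proteasome genes 28 (median 0.24) and of 65 cytosolic ribosomal proteins 23 (median -0.07), with 0 called by edgeR or DESeq2 in each and 13, 4 and 2 genes at an unadjusted edgeR p under 0.05. Of 15 tested glycolysis genes 10 were positive (median 0.16), and of 12 tested mTORC1 components 8 (median 0.16), again with 0 called by either tool and 2 and 0 genes at an unadjusted edgeR p under 0.05. Of 20 tested NF-kB components and targets 0 were called by either tool and 7 had an unadjusted edgeR p under 0.05, among them Sod2, the mitochondrial superoxide dismutase gene, at 344 and 667 CPM on chow against 988 and 1163 CPM on HFD (1.08 ± 0.25, adjusted p = 0.038). Of 22 tested lysosomal genes 10 were positive (median -0.04), with 0 called by either tool and 3 at an unadjusted edgeR p under 0.05.

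Nrg1, which encodes the growth factor neuregulin 1, was at 27.5 and 23.5 CPM in the chow mice against 163 and 96.1 CPM in the HFD mice (2.35 ± 0.44, adjusted p = 0.00744) and kept its call in 9 of 18 alternatives. Tnfaip6, whose product binds hyaluronan, was at 13.7 and 27.5 CPM against 149 and 115 CPM (2.64 ± 0.43, adjusted p = 0.00242) and kept its call in 14 of 18.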
